A study of Arabidopsis thaliana with 248 samples.

Results

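The genes described here are the protein-coding genes that lie inside the pericentromeres of the 5 Arabidopsis thaliana chromosomes and were transcribed in wild-type (WT) seedlings. Members were chosen by position and by measured counts. A gene was a member when it was annotated as protein-coding, started within a window around the centromere, and had a total count over 3 in the WT libraries of the experiment with ldl2. The windows were 11.5 to 17.7 Mb on chromosome 1, 1.1 to 7.2 Mb on chromosome 2, 10.3 to 17.3 Mb on chromosome 3, 1.5 to 6.3 Mb on chromosome 4, and 9.0 to 16.0 Mb on chromosome 5. Of 3296 protein-coding genes in these windows, 2212 passed the count, 2 of them were left out by name, and 2210 of the 33602 genes of the table remained. They were spread over the chromosomes as 418, 468, 416, 335, and 573 genes, in the order of the chromosome numbers. The other 1084 protein-coding genes of the windows had a WT total at or below the minimum, and 735 of these had no WT count. The 90 members just inside the minimum, with a WT total of 4, had a median total of 20 counts over the other libraries of that experiment (range, 0 to 665), and the 124 genes just outside it, with a WT total of 3, also had a median of 20 (range, 0 to 813).

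mRNA was measured in 2-week-old seedlings of the Col-0 strain grown on MS plates, in 2 separate experiments. The first (RNA2) had 9 genotypes: WT, suvh456 LDL2, suvh456 ldl2, cmt23 LDL2, cmt23 ldl2, and the F1 plants of the reciprocal crosses between these parents with LDL2 (sxc and cxs) or with ldl2 on both sides (sxc ldl2 and cxs ldl2). The suvh456 plants (suvh4/5/6) lack the H3K9 methyltransferases SUVH4, SUVH5, and SUVH6, the cmt23 plants (cmt2/3) lack the non-CG DNA methyltransferases CMT2 and CMT3, and each F1 is heterozygous for all of these mutations; in sxc the suvh456 parent is named first and in cxs the cmt23 parent. The second (RNA3) had WT, cxs from parents with ASHH3, and cxs ashh3 from parents that both carried ashh3. The ldl2 mutants carried the ldl2-1 allele and the ashh3 mutants the sdg7-2 allele. Each genotype had 3 biological replicates, and WT alone was free of the suvh456 and cmt23 mutations.

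The pericentromere is the part of a plant chromosome where transposable elements (TEs) are densest. There SUVH proteins and CMT proteins maintain each other's marks, methylation of lysine 9 of histone H3 (H3K9me2) and methylation of cytosines outside CG, and together these keep TEs silent. LDL2 is a demethylase that removes H3K4me1 from sequences that carry H3K9me2, and ASHH3 is a methyltransferase that adds H3K36me3. Genes lie among these TEs and must be transcribed in the same neighborhood, and a cross between the 2 kinds of mutant brings back both enzyme families in plants that inherit chromosomes without the marks.

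Library totals ranged from 8448989 to 12942034 counts in RNA2 and from 8252720 to 10656469 in RNA3, and one library, cxs ldl2 replicate 2, stood apart with 30088 genes detected against 27758 in the next and a TMM factor of 1.31 against 1.09. Levels are given as CPM, counts relative to the library size scaled by TMM. The leaf markers RBCS1A and CAB1 summed to 9870 to 34440 CPM over the RNA2 libraries, lowest in cxs ldl2, and to 16320 to 23210 CPM over the RNA3 libraries. The 3 root markers summed to 59.0 to 204.8 CPM in RNA2 and to 919.9 to 1799 CPM in RNA3. Of these, BGLU21 and BGLU22 were at most 0.283 and 0.472 CPM in any RNA2 library and at least 28.9 and 22.7 CPM in RNA3. How much root tissue each experiment held was not tested, and each experiment is compared only with its own WT. Because RNA came from seedlings and not from single cell types, fewer cells of a type and less RNA per cell cannot be told apart. Of the mutated genes, SUVH4 fell from a mean of 13.8 CPM in WT to 3.69 in suvh456 and CMT3 from 35.9 in WT to 9.83 in cmt23, while ASHH3 was at a mean of 17.4 CPM in cxs and 12.5 in cxs ashh3. SUVH5 and CMT2 were at means of 4.95 and 38.6 CPM in WT, SUVH5 at 1.18 in suvh456, and CMT2 at 26.4 in cmt23. SUVH6 was not lower in suvh456, at a mean of 24.6 CPM against 20.1 in WT, and reached 43.1 in sxc ldl2, and LDL2 was at means of 3.03 to 3.60 CPM in the 4 ldl2 genotypes of RNA2 against 3.95 to 4.33 in the 5 others there. Counts over a whole gene do not show whether its product was lost.

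The 250 bases before the annotated start were read from TAIR10.1 (RefSeq annotation) for 2 members that were above every WT library in all other genotypes, for 1 member whose upstream sequence lies inside a TE gene, and for 2 members with large falls in cxs against WT of RNA3. Capitals mark matches to the motifs TATAAA (the core promoter box, own strand), CACGTG (G-box, both strands), TTGAC (W-box core, both strands), and CGCGTT (core of the rapid stress response element, both strands), and matches may overlap. OFP9 is an ovate family transcription repressor, LBD26 a LOB domain protein, SQN the cyclophilin 40 homolog that acts with HSP90 in microRNA function, TCH2 a calmodulin-like calcium-binding protein, and PHI-1 a phosphate-induced protein of the cell wall. AT5G26270 is annotated as an uncharacterized protein.
AT5G26270 (chr5:9206125-9206374, plus strand): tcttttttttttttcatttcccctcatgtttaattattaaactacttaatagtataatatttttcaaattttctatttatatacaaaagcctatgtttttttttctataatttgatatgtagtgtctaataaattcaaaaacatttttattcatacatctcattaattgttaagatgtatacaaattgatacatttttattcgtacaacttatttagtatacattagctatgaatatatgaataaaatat
LBD26 (chr3:10373001-10373250, plus strand): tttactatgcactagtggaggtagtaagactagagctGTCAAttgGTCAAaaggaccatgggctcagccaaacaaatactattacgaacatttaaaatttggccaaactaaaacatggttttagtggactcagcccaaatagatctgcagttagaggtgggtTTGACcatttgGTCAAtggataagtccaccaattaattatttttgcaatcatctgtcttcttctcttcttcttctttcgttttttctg
SQN (chr2:6880899-6881148, minus strand): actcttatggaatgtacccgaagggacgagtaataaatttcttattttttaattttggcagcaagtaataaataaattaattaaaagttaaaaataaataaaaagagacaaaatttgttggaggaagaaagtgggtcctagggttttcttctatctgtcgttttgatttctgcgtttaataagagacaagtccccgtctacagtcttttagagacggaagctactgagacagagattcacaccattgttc
TCH2 (chr5:14999620-14999869, minus strand): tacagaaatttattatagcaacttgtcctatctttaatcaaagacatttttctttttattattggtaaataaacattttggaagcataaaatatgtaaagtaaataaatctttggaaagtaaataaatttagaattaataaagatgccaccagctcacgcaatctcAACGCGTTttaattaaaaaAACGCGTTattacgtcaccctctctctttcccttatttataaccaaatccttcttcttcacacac
PHI-1 (chr1:12851733-12851982, plus strand): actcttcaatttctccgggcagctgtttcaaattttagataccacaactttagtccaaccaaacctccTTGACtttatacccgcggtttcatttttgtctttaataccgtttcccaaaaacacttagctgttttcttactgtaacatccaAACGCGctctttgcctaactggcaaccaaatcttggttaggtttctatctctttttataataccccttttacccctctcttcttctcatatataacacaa

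The upstream sequences of the members had TATAAA and TTGAC about as often as those of the protein-coding genes outside the windows. They had CACGTG and CGCGTT less often, and these differences were not tested. Among the 2178 members found in the annotation, TATAAA was in 34.2%, CACGTG in 5.56%, TTGAC in 43.3%, and CGCGTT in 1.74%. Among 21245 genes of the chromosome arms with the same count minimum, the shares were 32.1%, 7.14%, 45.0%, and 2.77%. The upstream 250 bases of AT5G26270 held none of these motifs.

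The members were lower and shorter than the arm genes, and closer to TE genes. The median total WT count was 265.5 for the members and 362 for the 21462 arm genes that passed the same minimum, and 25.1% of the members and 17.8% of the arm genes had a total under 30. The median length of the annotated exons, or of the gene where none was annotated, was 1521 bases against 1676. A TE gene lay within 2 kb of 413 members (18.7%) and of 536 arm genes (2.5%), and 3341 of the 3903 TE genes of the table lay inside the windows. Per length, the median level in WT was 7.54 TPM, counts per length relative to the sum over all genes, for the members and 9.72 for the arm genes. The members held 9.17 to 10.31% of the counts of every RNA2 library and 9.42 to 9.84% of every RNA3 library, with group means of 10.06% in WT, 9.86% in suvh456, 9.81% in cmt23, 9.84% in sxc, and 9.69% in cxs of RNA2.

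The members with the highest levels per length were photosynthesis genes that stand in small clusters. RBCS3B, a small subunit of Rubisco, was at 10470, 10290, and 9065 TPM in the WT libraries of RNA2, and its neighbors RBCS2B and RBCS1B were at 4457 ± 212 and 3400 ± 174 TPM (mean ± SD, n = 3). The light-harvesting proteins LHCB2.2 and LHCB2.1 were at 3619 ± 147 and 3309 ± 168 TPM. These are families of near-identical copies, so how the reads were split among the copies is uncertain. In the tested comparisons below none of these 5 genes was called.

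A property of the deposited counts bears on how many of the members can be read one by one. For 372 members (16.8%) in RNA2 and 138 in RNA3, the counts over the libraries repeated those of another gene nearby that did not overlap it, to within 0.25 of the difference that counting error alone gives, and 376 members (17.0%) did so in at least one table, against 2190 arm genes (10.2%). The repeats formed 98 runs with a member, 27 of them with 5 or more, and 60 also held TE genes; the longest was chr2:5824324-6154256, 329.9 kb with 17 members and 25 TE genes, whose totals over all RNA2 libraries were 129 to 141. The run at chr2:1828028-1989867 held 16 members with WT totals of 338 to 344, among them SCRL9, a small secreted SCR-like peptide gene, and AT2G05270. SCRL9 (chr2:1838592-1839014) was at 5.37, 8.53, and 14.9 CPM in the WT libraries and AT2G05270 (chr2:1920702-1921116) was at 5.37, 8.43, and 14.9 CPM. Both dropped to 0.449 CPM in sxc ldl2 replicate 3.

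The genes in a run mostly did not share sequence. AT4G09850, AT4G09860, and AT4G09870 had the same counts in every library of both experiments (5.09, 7.25, and 12.4 CPM in the WT libraries of RNA2), and no stretch of 100 bases, the length of a clipped read, was shared by any 2 of them. Of 856 pairs of members whose RNA2 counts repeated, 20 shared such a stretch. The AT14A copies AT3G28290 and AT3G28300, which encode membrane proteins with similarity to integrins, were among those 20, shared all of their 100-base stretches, and cannot be told apart. Repeats were more frequent among members read from the strand opposite the annotated one (209 of 335) than among the others (167 of 1875), and among members with a WT total under 30 (214 of 554) than among the others (162 of 1656). For the tested comparisons, called members that repeat are therefore named or counted. The counts of called members against WT of RNA2 include them. Free of repeats, counted on their own strand in both tables, and with a WT total of 30 or more were 1442 members.

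**Figure D1:**
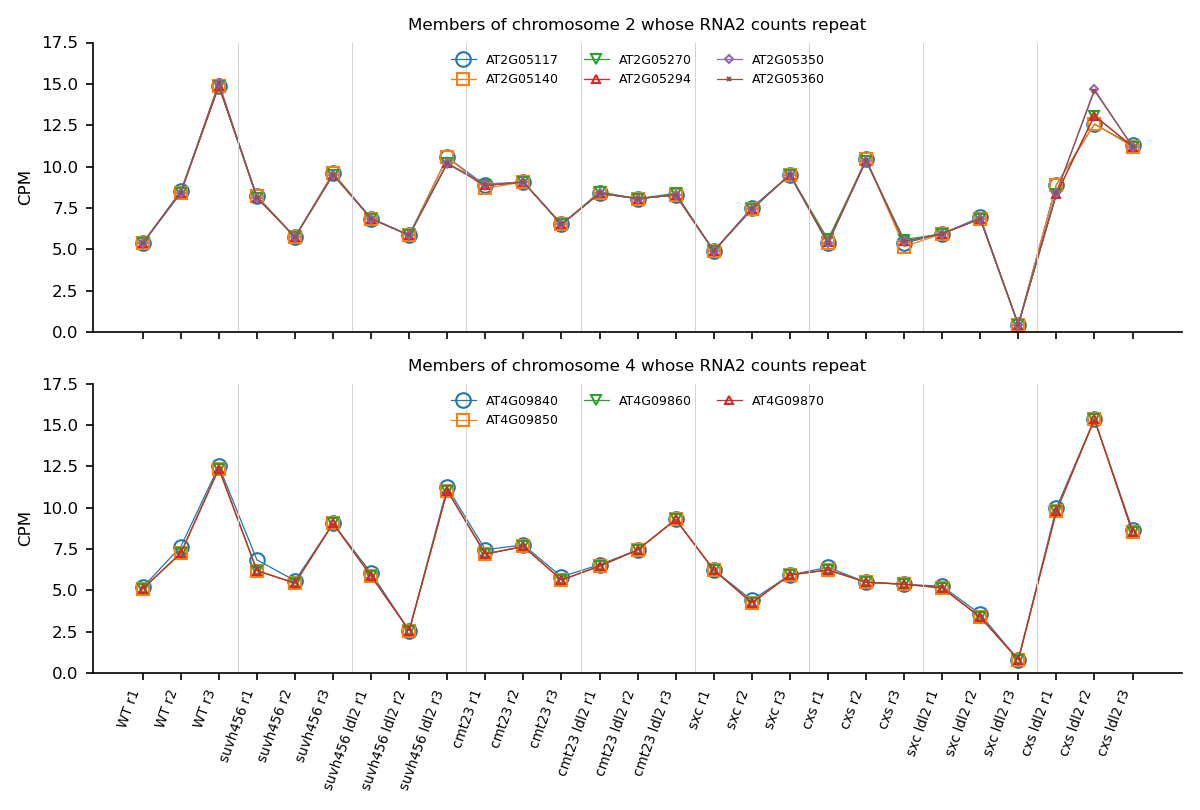
CPM (y axis) in each of the 27 RNA2 libraries (x axis, grey lines between genotypes) for 6 members of the chromosome 2 run and 4 members of a chromosome 4 run, 1 symbol per gene. Within a panel the symbols lie on each other in nearly every library, including the fall to 0.449 CPM (chromosome 2) and 0.808 CPM (chromosome 4) in sxc ldl2 replicate 3.

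OFP9, AT5G26270, AT2G06845, LBD26, AT2G07215, and AT2G13450 were the 6 members above every WT library in all 24 other libraries of RNA2 and again in all 6 other libraries of RNA3. The RNA2 WT libraries helped to choose the members, so that pattern in RNA2 is a description, but the RNA3 libraries had no part in the choice. Of the 21462 arm genes, 45 were above in RNA2 and 15 in both. In RNA3, 100 members and 1019 arm genes were above WT in all 6 other libraries.

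OFP9 (chr4:1936653-1937972) was at 0.188, 0.0980, and 0.153 CPM in the WT libraries of RNA2 and at 37.8, 31.0, and 28.1 CPM in suvh456. In cmt23 it was at 19.2, 16.6, and 18.3 CPM, and in the F1 plants it was at 19.7, 20.2, and 27.8 CPM (sxc) and 34.6, 31.6, and 33.8 CPM (cxs). No library of a mutant or an F1 came near WT, and the lowest was cxs ldl2 replicate 2 with 6.29 CPM. In RNA3 it was at 0, 0.117, and 0.101 CPM in WT, at 21.5, 26.2, and 26.3 CPM in cxs, and at 23.4, 25.7, and 22.8 CPM in cxs ashh3, so the 3 cxs and the 3 cxs ashh3 libraries overlapped. The 711 counts in cxs against 2 in WT gave a ratio of 337 (95% interval from counting error only, 93.0 to 2790), with an edgeR adjusted p of 3.0e-13.

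AT5G26270 (chr5:9206375-9208136) was at 2.64, 0.392, and 1.53 CPM in the WT libraries of RNA2, at 161.8, 156.2, and 149.7 CPM in suvh456, and at 79.6, 82.8, and 77.2 CPM in cmt23. The cmt23 libraries were below all suvh456 libraries, and the log2 difference between these parents was 0.96 (SE 0.28, edgeR adjusted p = 0.21). In RNA3 AT5G26270 was at 3.78, 0.819, and 0.504 CPM in WT and at 102.6, 132.9, and 118.8 CPM in cxs, which is 6.12 on the log2 scale (SE 0.28, edgeR adjusted p = 3.1e-12). Its level in cxs ashh3 was 107.4, 98.8, and 111.2 CPM, overlapping cxs.

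The other 4 of these members had lower levels. AT2G06845, a beta-galactosidase related protein, was at most 0.229 CPM in the WT libraries of RNA2 and from 1.63 to 8.69 CPM in the 24 others. In RNA3 it was at 0, 0, and 0.403 CPM in WT and at 1.57, 2.02, and 1.79 CPM in cxs (52 counts against 4, ratio 12.3 with an interval of 4.54 to 46.9). LBD26 was at 0.943, 1.76, and 1.98 CPM in WT and from 3.78 to 9.66 CPM in the other RNA2 libraries, and in RNA3 it rose in cxs by 2.39 on the log2 scale (SE 0.33, edgeR adjusted p = 4.2e-05). AT2G07215, read from the strand opposite the annotated one, had no count in the WT libraries of RNA3 and 25 in cxs, which was at least 7.90-fold higher against a floor of 3 counts over the group. AT2G13450, annotated as a Ta11-like non-LTR retrotransposon although listed as protein-coding, was at 0.334, 0.819, and 1.31 CPM in WT and at 3.82, 2.60, and 4.66 CPM in cxs of RNA3 (log2 difference 2.12, SE 0.40, edgeR adjusted p = 0.0017).

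**Figure D2:**
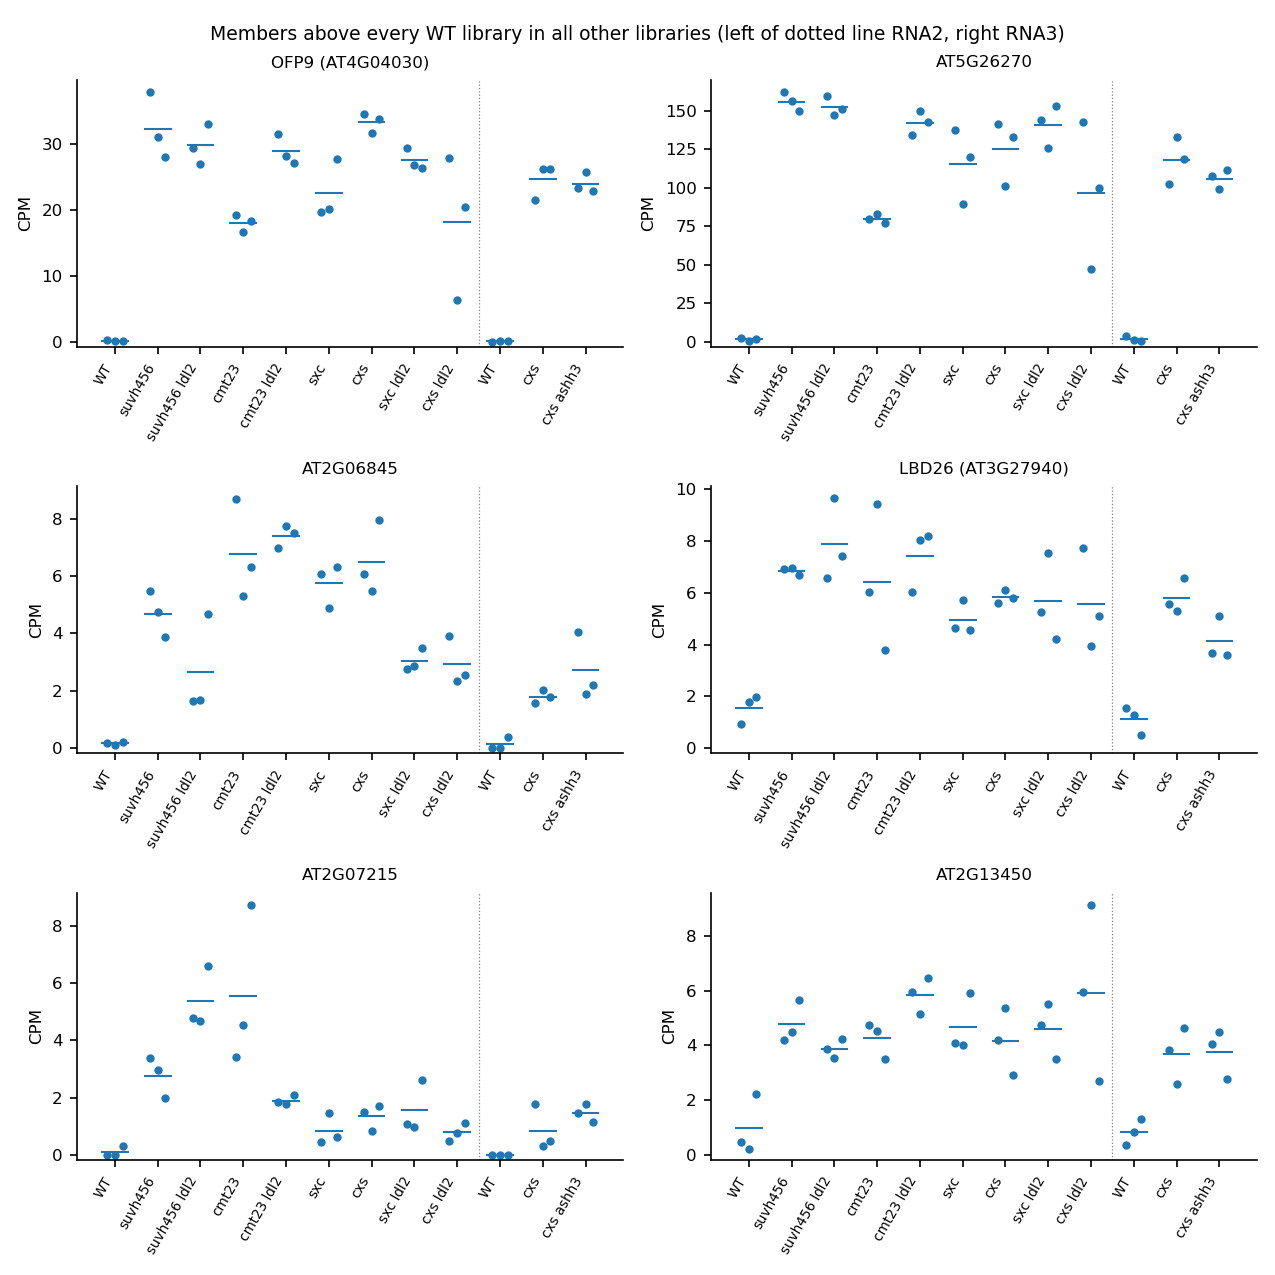
CPM (y axis, linear) of 6 members in each library, by genotype (x axis); points are libraries, bars are means of 3, RNA2 is left of the dotted line and RNA3 right of it. In every panel the WT libraries lie below all other libraries of the same experiment; OFP9 spans 6.29 to 37.8 CPM and AT5G26270 46.9 to 161.8 CPM in the other RNA2 libraries.

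In the description against the WT libraries of RNA2, the called members (adjusted p under 0.05, edgeR) were 36 higher and 23 lower in suvh456, where 2.09% and 0.527% of all genes were called higher and lower. In cmt23 they were 52 higher and 42 lower, beside 2.32% and 1.36% of all genes. For the other genotypes the members called in either direction were 98 in suvh456 ldl2 (3.95% of all genes), 18 in cmt23 ldl2 (1.23%), 7 in cxs (0.78%), 14 in sxc (0.857%), 26 in cxs ldl2 (1.39%), and 27 in sxc ldl2 (1.78%). These comparisons share the WT libraries that chose the members, and nothing is read from the counts. The largest rises by the naming rule were OFP9, AT5G26270, and AT2G06845 in suvh456 (7.67, 6.66, and 4.65 on the log2 scale) and OFP9, AT5G26270, and AT2G07215 in cmt23 (6.83, 5.70, and 5.46).

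The largest falls against WT in RNA2 were smaller. In suvh456 they were AT2G13550, an uncharacterized gene counted on the opposite strand (-1.65), and both AT14A copies (-1.50). In cmt23 they were AT5G39220, an alpha/beta-hydrolase (-1.87), and the xyloglucan-modifying cell wall enzymes XTH31 (-1.56) and XTH4 (-1.08). XTH31 was at 29.6, 43.2, and 32.7 CPM in WT and at 9.92, 9.26, and 16.7 CPM in cmt23. It was below all WT libraries in all other RNA2 libraries, with 11.3, 21.55, and 23.4 CPM in cxs. In RNA3 XTH31 was higher in cxs, at 24.1, 44.8, and 47.8 CPM against 27.4, 21.5, and 17.73 CPM in WT (log2 difference 0.81, SE 0.22, edgeR adjusted p = 0.037), and those libraries overlap.

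The 554 members with a WT total of 4 to 29 had a median log2 difference from WT of -0.61 in suvh456 and -0.58 in cmt23, in the experiment whose WT counts chose them. In RNA3, where WT had no part in the choice, the median of those members was 0.14 in cxs. The medians over all 2210 members were -0.06 in suvh456 and -0.08 in cmt23 against WT of RNA2, and 0.03 in cxs against WT of RNA3.

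Without the WT libraries of RNA2, the suvh456 parent was compared with the mean of the F1 plants sxc and cxs. Called members were 9 higher and 7 lower, against 1.21% of all genes higher and 0.0982% lower. Among the arm genes 23 were higher and 13 lower. In either direction 0.724% of the members and 0.168% of the arm genes were called. The 9 were AT3G29639, SQN, AT1G37113, AT5G35480, MRU1, AT4G03930, NAC6, CYCB1;5, and AT2G14255, with log2 differences from 3.8 to 0.50. Without suvh456 replicate 1, 2, or 3 the lower members numbered 4, 4, and 3, and the median over all members was 0.02, over the arm genes 0.00.

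SQN (chr2:6877774-6880898, minus strand) was the second by the naming rule. It was at 141.6, 131.1, and 116.2 CPM in suvh456, at 9.09, 6.70, and 10.7 CPM in sxc, and at 15.3, 10.6, and 14.9 CPM in cxs, which do not overlap with suvh456. The log2 difference was 3.57 (SE 0.32, edgeR adjusted p = 9.1e-08), and no alternative ended the call. WT was at 8.67, 7.94, and 7.63 CPM. The first 74 bases of SQN overlap AT2G15800 (chr2:6880825-6882741), a TE gene annotated on the plus strand and counted on the minus strand, the strand of SQN, and the 250 upstream bases printed above lie inside it. AT2G15800 was at 1.41, 2.25, and 1.98 CPM in WT and at 211.3, 182.2, and 166.4 CPM in suvh456, above SQN in each of those libraries. Whether reads were shared between both genes was not tested.

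SQN and the TE gene were also above WT together in other genotypes. In cmt23 SQN was at 14.4, 17.1, and 17.8 CPM, a log2 difference of 0.58 from the F1 mean (SE 0.34, edgeR adjusted p = 0.72). In cmt23 ldl2 it was at 43.3, 35.97, and 30.6 CPM, above all cmt23 libraries but not called (log2 difference 1.16, SE 0.39, edgeR adjusted p = 0.30). The lone high library in cxs ldl2 was replicate 3, with 34.3 CPM of SQN and 81.5 CPM of AT2G15800. In RNA3 SQN was at 9.56, 12.2, and 7.35 CPM in WT, at 9.21, 11.9, and 9.19 CPM in cxs, and at 12.7, 18.8, and 14.9 CPM in cxs ashh3 (cxs ashh3 against cxs, 0.62 on the log2 scale, SE 0.19, edgeR adjusted p = 0.17), while AT2G15800 itself rose in cxs ashh3 by 2.17 (SE 0.34, edgeR adjusted p = 0.0018).

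**Figure D3:**
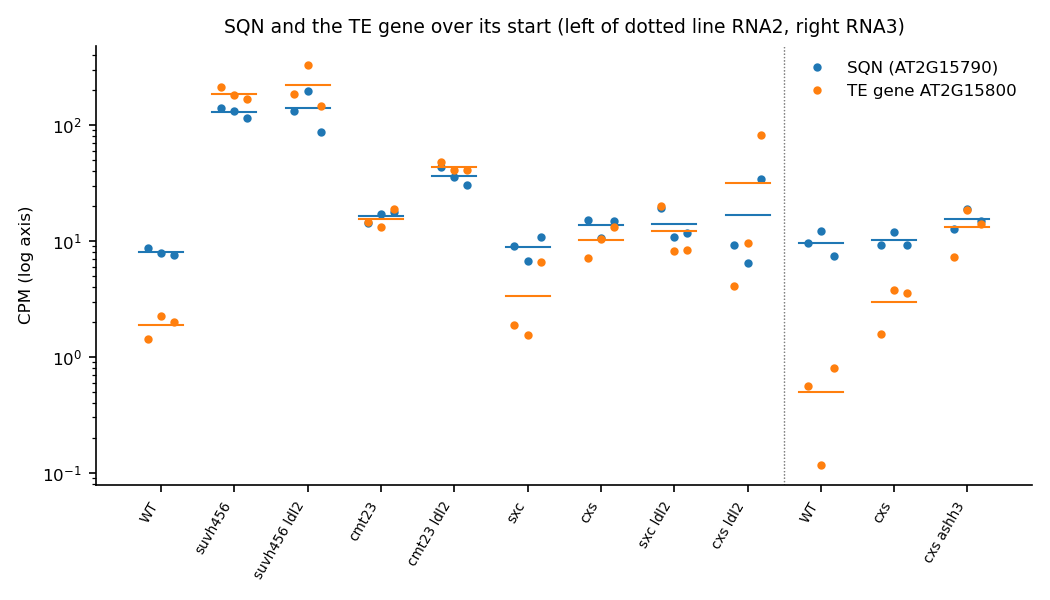
CPM (y axis, log scale) of SQN and of the TE gene AT2G15800 that overlaps its start, in each library by genotype (x axis); points are libraries and bars are means of 3, RNA2 left of the dotted line and RNA3 right. Both are highest in suvh456 and suvh456 ldl2 (SQN 87.6 to 197.5 CPM), and AT2G15800 is the lower of the pair in WT.

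The neighbors MRU1 and AT5G35480 on chromosome 5 (chr5:13689817-13690548, plus strand, and chr5:13689204-13689558, minus strand) had the same order of these genotypes. MRU1, a gene named for its rise in methionine-overaccumulating mutants, was at 19.8, 27.9, and 24.8 CPM in suvh456, at 12.7, 15.1, and 11.3 CPM in cmt23, and from 6.13 to 9.12 CPM in sxc and cxs, with no overlap between the 3 levels. It differed from the F1 mean by 1.72 in suvh456 (SE 0.17, edgeR adjusted p = 2.9e-07) and by 0.83 in cmt23 (SE 0.17, edgeR adjusted p = 0.027). The cmt23 call was lost without any one of cmt23 replicates 1 and 2, sxc replicates 1 and 2, and cxs replicates 1 and 3, and with the compared groups fitted alone (adjusted p up to 0.31). AT5G35480 differed by 1.77 in suvh456 (SE 0.19, edgeR adjusted p = 1.8e-06). In RNA3 both rose in cxs against WT, MRU1 by 1.30 (SE 0.28, edgeR adjusted p = 0.0050) and AT5G35480 by 1.28 (SE 0.21, edgeR adjusted p = 0.00038).

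Other rises in suvh456 were at low levels. AT3G29639 was at 2.41, 5.35, and 1.88 CPM in suvh456 and from 0 to 0.395 CPM in sxc and cxs (log2 difference 3.80, SE 0.64, edgeR adjusted p = 0.00073). AT1G37113 was at 1.69, 2.41, and 2.54 CPM against 0.107 to 0.618 CPM (2.36, SE 0.49, edgeR adjusted p = 0.0073). Both are annotated as uncharacterized proteins. CYCB1;5, a B-type cyclin, was at 3.30, 3.10, and 3.86 CPM in suvh456 and at 0.980 to 2.25 CPM in the F1 plants, and NAC6, a leaf senescence regulator, at 4.59, 13.3, and 4.99 CPM against 1.45 to 5.39, where the libraries overlap.

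Of the 7 members lower in suvh456, both AT14A copies repeat each other's counts. AT3G28300 was at 43.1, 44.8, and 21.3 CPM in suvh456, at 140.1, 136.6, and 97.7 CPM in sxc, and at 72.0, 114.1, and 57.5 CPM in cxs, without overlap. The log2 difference was -1.47 (SE 0.29, edgeR adjusted p = 0.0049), and the call was lost without suvh456 replicate 3 (adjusted p = 0.067). BR6OX2, which makes brassinolide in the last step of brassinosteroid synthesis, was at 11.6, 12.2, and 10.27 CPM in suvh456 and from 17.0 to 28.4 CPM in sxc and cxs (-0.99, SE 0.16, edgeR adjusted p = 0.00049). AT3G46490, a 2-oxoglutarate dependent oxygenase, AT5G35740, a carbohydrate-binding X8 domain protein, and XTH4 fell by 0.92, 0.81, and 0.49 on the log2 scale.

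The remaining gene of the 7, AT5G34830, was singled out after its values were seen. It is an uncharacterized gene with 6 counts over the WT libraries of RNA2 and no count in any of the 12 libraries of suvh456, suvh456 ldl2, cmt23, and cmt23 ldl2. The F1 libraries had counts again, from 0.207 to 1.61 CPM in sxc and cxs, and suvh456 was at least 9.85-fold lower than their mean against a floor of 3 counts over the group. In RNA3, WT had 3, 0, and 1 counts, cxs 4, 0, and 3, and cxs ashh3 2, 0, and 0.

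In cmt23 against the F1 mean, 3 members were higher and 1 lower, beside 0.28% and 0.137% of all genes. The share called was 0.181% of the members and 0.135% of the arm genes. AT2G07215 was at 3.42, 4.53, and 8.73 CPM in cmt23 and from 0.445 to 1.72 CPM in the F1 plants (2.35, SE 0.42, edgeR adjusted p = 0.0058), a call lost without cmt23 replicate 3 (adjusted p = 0.10). AT5G39130, a cupin, was at 1.84, 3.31, and 2.14 CPM against 0.322 to 1.07 CPM (1.91, SE 0.42, edgeR adjusted p = 0.038). That call was lost without any one of the 3 cmt23 libraries, sxc replicates 2 and 3, and cxs replicates 2 and 3 (adjusted p up to 0.39), with the compared groups fitted alone (0.18), and with the replicate block (0.055). MRU1, given above, was the third. XTH4, which remodels xyloglucan in cell walls, fell from 52.5 to 96.1 CPM in the F1 libraries to 49.1, 44.2, and 49.1 CPM in cmt23 (-0.66, SE 0.13, edgeR adjusted p = 0.011), and the call was lost without cmt23 replicate 1 or 2 (adjusted p up to 0.13) and with the compared groups alone (0.061).

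Between the parents themselves, 6 members were higher and 3 lower in suvh456 than in cmt23, against 0.634% and 0.0446% of all genes. The share called was 0.407% of the members and 0.112% of the arm genes. Both AT14A copies, which repeat, are among the 3. Leaving out single libraries gave 1 to 5 higher and 0 to 1 lower, with 1 higher without suvh456 replicate 2 or cmt23 replicate 1, and 2 without suvh456 replicate 3 or cmt23 replicate 2 or 3. SQN differed by 2.98 (SE 0.40, edgeR adjusted p = 8.5e-05), with 14.4 to 17.8 CPM in cmt23. AT2G05915, counted on the opposite strand, was at 15.9, 23.9, and 16.2 CPM in suvh456 and at 0.702, 2.93, and 1.55 CPM in cmt23 (3.44, SE 0.75, edgeR adjusted p = 0.022), a call lost without suvh456 replicate 2 or any one cmt23 library (adjusted p up to 0.23). AT5G35760, like AT2G06845 a beta-galactosidase related protein, was at 2.90, 2.72, and 3.58 CPM against 0.175, 0.189, and 0.679 CPM (3.11, SE 0.73, edgeR adjusted p = 0.043). MRU1, AT5G35480, and AT2G13430 made up the 6. AT2G13550 was lower in suvh456, at 1.05, 1.40, and 1.04 CPM against 3.25, 3.12, and 2.72 CPM (-1.37, SE 0.32, edgeR adjusted p = 0.036). The calls for AT5G35760 (adjusted p up to 0.36), AT2G13550 (up to 0.23), and AT14A (up to 0.31) were each lost without any one of suvh456 replicates 1 to 3 or cmt23 replicates 1 and 2, and those for AT2G13550 and AT14A also without cmt23 replicate 3. The replicate block ended the calls for AT5G35760 (adjusted p = 0.055) and AT2G13550 (0.056), and the compared groups alone ended that for AT2G13550 (0.085).

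The question put to the ldl2 crosses was whether silencing in the F1 plants needs LDL2. Over both crosses 1 member was higher and 1 lower, where 0.289% of all genes were higher and 0.0327% lower. The share called was 0.0905% of the members and 0.0652% of the arm genes. The member that rose was CRR7, annotated as chlororespiratory reduction 7, singled out here as the lone call. It was at 24.5, 24.0, and 29.3 CPM in sxc and at 29.5, 35.3, and 26.2 CPM with ldl2 on both sides, which overlap, and at 24.7, 29.8, and 28.99 CPM in cxs and 39.5, 47.1, and 42.1 CPM in cxs ldl2, which do not. The log2 difference was 0.43 (SE 0.08, edgeR adjusted p = 0.017), made up of 0.23 in sxc and 0.63 in cxs. Without sxc replicate 1 or sxc ldl2 replicate 2 no member was called higher, and without cxs ldl2 replicate 1 there were 17 higher and 58 lower.

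The member that fell was AT2G06845, one of the members above WT in all other libraries. It went from 6.06, 4.90, and 6.298 CPM in the sxc libraries to 2.77, 2.85, and 3.50 CPM with ldl2, and from 6.08, 5.49, and 7.95 CPM in the cxs libraries to 3.92, 2.35, and 2.55 CPM with ldl2, with no overlap in either cross. The log2 difference was -1.03 (SE 0.22, edgeR adjusted p = 0.035), and -0.91 and -1.15 in the single crosses. The call was lost without any one of sxc replicates 1 and 3, cxs replicates 1 and 3, sxc ldl2 replicates 1 and 2, and cxs ldl2 replicates 2 and 3, and with the compared groups alone (adjusted p up to 0.14). In the suvh456 parent ldl2 gave -0.82 (SE 0.31, edgeR adjusted p = 1.0) and in the cmt23 parent 0.13 (SE 0.29, edgeR adjusted p = 1.0).

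Taken cross by cross, no member was called for ldl2 in sxc (edgeR, with 0.128% of all genes called, 106 members at an unadjusted p under 0.05, and 0 by DESeq2), and 3 were called in cxs, where 0.101% of all genes were. These were CRR7, AT3G29330, an RNA-binding-like zinc finger protein counted on the opposite strand (0.83, SE 0.15, edgeR adjusted p = 0.026), and AT3G44430, an uncharacterized protein (-0.76, SE 0.14, edgeR adjusted p = 0.042). AT3G29330 was at 27.3, 37.9, and 35.1 CPM in cxs ldl2 and at 17.68, 22.0, and 16.7 CPM in cxs. DESeq2 called 50 members higher and 55 lower in cxs. Whether ldl2 acted differently in the crosses was not tested.

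In the parents and between the reciprocal crosses no member was called by edgeR. For ldl2 in suvh456, 0.0238% of all genes were called, 35 members had an unadjusted p under 0.05, and DESeq2 called 0. For ldl2 in cmt23, 0.0625% of all genes were called, 228 members had an unadjusted p under 0.05, and DESeq2 called 4 higher and 19 lower. With cmt23 and cmt23 ldl2 fitted without the other genotypes, edgeR called 22 members higher and 123 lower. For cxs against sxc, 0.00298% of all genes were called, 78 members had an unadjusted p under 0.05, and DESeq2 called 1 lower. Without sxc replicate 3, edgeR called 6 members lower in cxs.

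**Figure D4:**
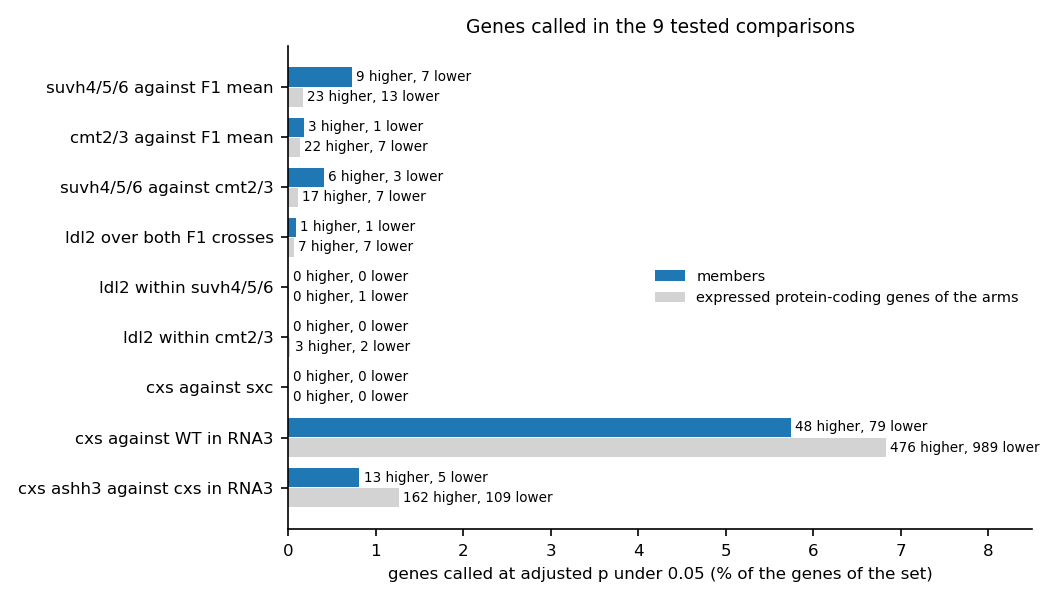
Share of genes called at an adjusted p under 0.05 (x axis, percent) in the 9 tested comparisons, for the 2210 members (blue) and the 21462 expressed protein-coding genes of the arms (grey), with the numbers called beside the bars. In RNA2 the members are called 0 to 16 at a time, and in RNA3 127 and 18.

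In RNA3, cxs against WT gave 48 higher and 79 lower members, where 2.37% of all genes were higher and 3.25% lower, and 476 and 989 of the arm genes. In either direction 5.75% of the members and 6.83% of the arm genes were called. Of the 48, 15 repeat the counts of a neighbor in RNA2 or RNA3, mostly in the chromosome 2 run with SCRL9, which leaves 33. That run was defined in RNA2, where SCRL9, AT2G05270, and AT2G05350 were all counted on the minus strand. In RNA3 AT2G05350 was counted on the plus strand and the other 2 again on the minus strand. In cxs of RNA3 SCRL9 was at 1.57, 0.867, and 0.836 CPM and AT2G05270 at 1.37, 0.867, and 0.836 CPM. AT2G05350, on the other strand, was at 4.11, 1.35, and 0.597 CPM. None of the 79 repeats. The seed storage markers summed to 0.702 to 10.01 CPM in WT, to 3.04 to 122.0 CPM in cxs, and to 0.314 to 0.463 CPM in cxs ashh3, and the part of seed RNA in the member results was not tested.

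The rises were led by OFP9 (8.16) and AT5G26270 (6.12), given above. The third by the naming rule was AT2G05350, in the run with SCRL9. It was at 0.445, 0, and 0.101 CPM in WT and at 4.11, 1.35, and 0.597 CPM in cxs (3.40, SE 0.80, edgeR adjusted p = 0.011). Its call was lost without cxs replicate 1 (edgeR adjusted p = 0.096). In RNA2 it was counted on the other strand than in RNA3. There it was at 5.37, 8.43, and 15.0 CPM in WT and at 5.37, 10.4, and 5.48 CPM in cxs, which overlap. All 7 members called in cxs against WT of RNA2, which were the 6 named above and AT2G13430, were also called higher in RNA3, beside 28 of 43 arm genes called in the same direction. Of the 48 members higher in RNA3, 16 had a positive difference in cxs against WT of RNA2, and of the 79 lower 18 had a negative one. Among the arm genes these were 140 of 476 and 225 of 989. The RNA2 side rests on the WT libraries that chose the members. AT3G44450 (1.65, SE 0.25, edgeR adjusted p = 0.00015) and AT3G45210 (1.25, SE 0.16, edgeR adjusted p = 1.8e-05) were among the rises without a repeat, at 9.50, 7.81, and 8.83 CPM against 2.34, 2.92, and 3.02 CPM in WT for AT3G44450. PRE1, a small bHLH protein that promotes growth in response to gibberellin, was at 5.29, 7.71, and 6.33 CPM in cxs against 3.11, 3.63, and 1.91 CPM in WT (1.17, SE 0.26, edgeR adjusted p = 0.0067). These 3 were chosen after their values were seen, and in RNA2 the cxs libraries of each overlapped WT.

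The falls named by the rule were PHI-1, ZAT7, and AT1G47370. PHI-1 (chr1:12851997-12853128) was at 30.1, 41.9, and 56.2 CPM in WT and at 0.882, 1.35, and 0.716 CPM in cxs, far apart (-5.40, SE 0.32, edgeR adjusted p = 1.9e-10). In RNA2 it was at 1.41, 1.86, and 1.60 CPM in WT and at 3.47, 1.35, and 3.33 CPM in cxs, which overlap. ZAT7, a zinc finger repressor in stress tolerance, was at 3.45, 6.20, and 2.82 CPM in WT and at 1.18, 0.193, and 0.716 CPM in cxs of RNA3 (-2.56, SE 0.49, edgeR adjusted p = 0.0019). AT1G47370, a TIR domain protein, was at 2.34, 1.75, and 1.91 CPM against 0.392, 0.193, and 0.478 CPM (-2.48, SE 0.58, edgeR adjusted p = 0.011).

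Further falls are given here as examples chosen after their values were seen. TCH2 was at 102.3, 104.7, and 135.3 CPM in WT and at 10.5, 21.3, and 31.4 CPM in cxs (-2.45, SE 0.23, edgeR adjusted p = 2.1e-07). CAF1a, a deadenylase that shortens mRNA tails in stress, was at 101.5, 81.8, and 73.1 CPM against 6.95, 19.1, and 26.0 CPM (-2.32, SE 0.25, edgeR adjusted p = 1.8e-06). In each of them cxs replicate 1 was the lowest of 9 libraries. EXO, a brassinosteroid-responsive growth protein of the same family as PHI-1, went from 60.4, 91.7, and 119.1 CPM to 16.7, 22.1, and 22.6 CPM (-2.15, SE 0.18, edgeR adjusted p = 3.5e-08). The GRAS protein gene AT3G46600, the uncharacterized AT1G32920, and CNI1, a ubiquitin ligase of carbon and nitrogen response, fell by 1.90, 2.25, and 1.61 on the log2 scale, and NIA2, the main nitrate reductase, by 1.0. WT of RNA2, in which TCH2 was at 13.7, 13.8, and 12.1 CPM and CAF1a at 3.30, 3.82, and 2.59 CPM, was as low as cxs of RNA3 or lower, levels set across tables that were normalized separately, and TCH2 in cxs of RNA2 (12.7, 13.9, and 14.8 CPM) overlapped it.

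Matches to CGCGTT stood upstream of 8 of the 79 falling members, against 1.74% of the members and 2.77% of the arm genes, and of 0 of the 48 rising members; the motif was chosen with these results known, and no test was made. The palindrome AACGCGTT occurs in both copies upstream of TCH2 and is counted on each strand. CACGTG was upstream of 12.7% of the falling members and of 6.25% of the rising ones, TTGAC of 48.1% and 52.1%, and TATAAA of 31.6% and 29.2%.

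**Figure D5:**
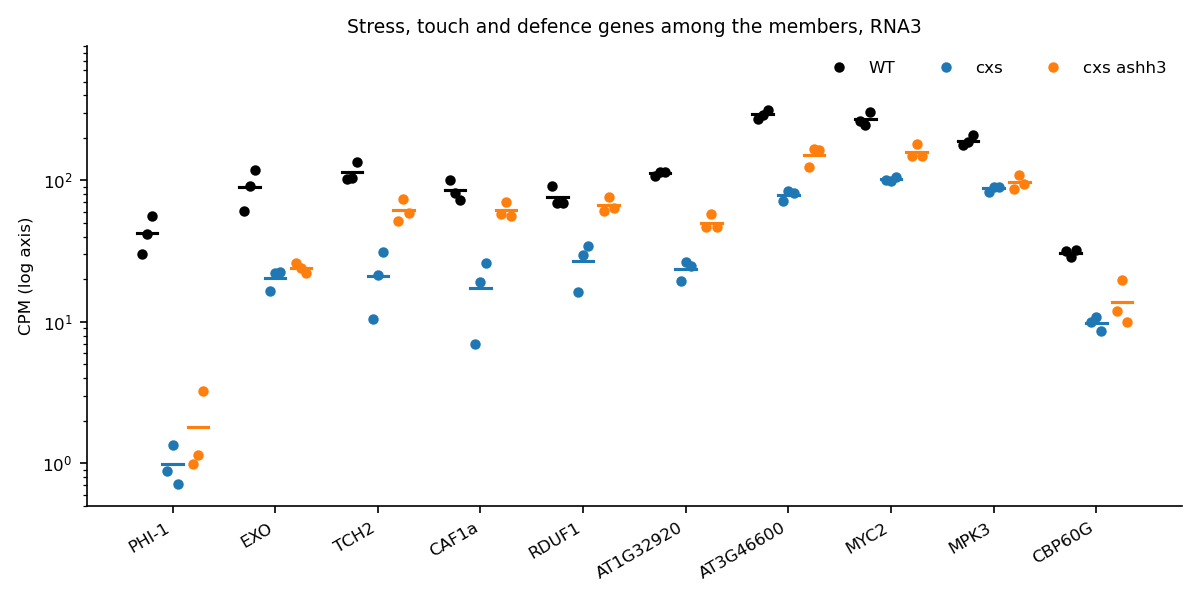
CPM (y axis, log scale) of 10 members in the RNA3 libraries of WT (black), cxs (blue), and cxs ashh3 (orange); points are libraries and bars are means of 3. All WT points lie above all cxs points in each gene, TCH2 and CAF1a in cxs ashh3 lie between, and RDUF1 in cxs ashh3, at 60.5 to 76.7 CPM, overlaps WT at 68.8 to 91.5 CPM.

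Loss of ASHH3 in the cxs cross gave 13 higher and 5 lower members, where 0.557% of all genes were higher and 0.506% lower. In either direction 0.814% of the members and 1.26% of the arm genes were called. Of the 5, 4 repeat the counts of a neighbor, which leaves PMZ, a stress-associated zinc finger gene at 13.1, 9.64, and 7.76 CPM in cxs and 5.63, 5.44, and 2.09 CPM in cxs ashh3 (-1.22, SE 0.26, edgeR adjusted p = 0.024). The 4 are AT4G09840, AT4G09850, AT4G09860, and AT4G09870, of which the last 3 carry the same counts and stand as 1 measurement (3.23, 5.01, and 2.75 CPM in cxs and 0.490, 1.46, and 0.695 CPM in cxs ashh3; -2.02, SE 0.46, edgeR adjusted p = 0.036). That call was lost without cxs replicate 2, cxs ashh3 replicate 1, or cxs ashh3 replicate 3 (adjusted p up to 0.15) and with filterByExpr (0.11). The 13 became 20 without cxs replicate 2 and 8 without cxs ashh3 replicate 3, and the 5 became 15 and 10 without cxs replicates 1 and 3, and 3, 20, and 2 without cxs ashh3 replicates 1, 2, and 3.

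CAF1a had the largest rise, to 57.8, 70.5, and 55.7 CPM in cxs ashh3 (1.84, SE 0.25, edgeR adjusted p = 0.00040), below every WT library. HB1, a non-symbiotic hemoglobin that rises under low oxygen, was at 1.96, 6.46, and 4.06 CPM in cxs and at 7.22, 9.41, and 22.1 CPM in cxs ashh3 (1.63, SE 0.39, edgeR adjusted p = 0.047). The HB1 call was lost without cxs replicate 1 or 3 or cxs ashh3 replicate 3 (adjusted p up to 0.39), with filterByExpr (0.16), with the replicate block (0.099), and by DESeq2 (0.063). TCH2 was at 51.5, 74.2, and 58.7 CPM (1.56, SE 0.23, edgeR adjusted p = 0.00083), above all cxs and below all WT libraries.

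Of the other 10 rises, RDUF1, a ubiquitin ligase of drought and abscisic acid response, rose by 1.33 (SE 0.18, edgeR adjusted p = 0.00045), AT1G32920 by 1.09, the galacturonosyltransferase-like GATL10 by 1.09, AT3G46600 by 0.95, the ubiquitin ligase RMA1 by 0.88, the wound-responsive AT4G05070 by 0.68, and MYC2 by 0.66. In cxs against WT these 7 genes differed by -1.52, -2.25, -1.83, -1.90, -1.39, -0.99, and -1.41. The cxs libraries are in both comparisons, so a low or high value there moves both in opposite directions. The remaining 3 were the ribosomal protein genes AT3G43980, AT5G27770, and AT5G27850 (0.81, 0.44, and 0.48). In cxs against WT they differed by -0.34, -0.12, and -0.10 and were not called. PHI-1 and EXO, at 0.979, 1.15, and 3.24 CPM and at 26.1, 23.8, and 22.2 CPM in cxs ashh3, were not called against cxs.

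Of 16 members for light, hormone, and stress signaling, 6 were lower and none higher in cxs against WT of RNA3, where 3.25% of all genes were lower: MYC2, the central jasmonate transcription factor (-1.41), the immune kinase MPK3 (-1.12), BZIP60 of the unfolded protein response (-1.01), MYB30 of the hypersensitive response (-0.68), MEKK1 above MPK4 (-0.46), and the blue light receptor CRY1 (-0.31). MYC2 was at 262.1, 246.9, and 302.8 CPM in WT and at 100.6, 98.5, and 105.5 CPM in cxs. The list was chosen with earlier results of these data known, so 6 of 16 is a description, and no enrichment was tested. The 3.25% covers all 33602 genes with no filter on low counts. With the WT count minimum, 79 of the 2210 members and 989 of the 21462 arm genes were lower. The median over the list was -0.12 and over all members 0.03. In cxs ashh3 against cxs, 1 of the 16, MYC2, was higher. Of the tested RNA2 comparisons none called a gene of the list. Against WT of RNA2, which is described without p, MPK3 was higher by 0.87 in cmt23 and by 0.82 in suvh456 ldl2. MEKK1 and VIP1 were higher by 0.54 and 0.52 in cmt23. These are other genotypes than the cxs of RNA3. In cxs of RNA2 MPK3 was at 83.8, 61.3, and 68.9 CPM against 67.7, 67.6, and 59.4 CPM in WT. MEKK1 was at 26.9, 21.1, and 24.5 CPM there against 22.9, 23.4, and 18.9 CPM in WT, and the libraries overlap for both genes.

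Of 9 members for defence and for glucosinolate or nitrile metabolism, 2 were lower in cxs against WT of RNA3, beside the same 3.25% of all genes. This list and the photosynthesis and chromatin lists below were also chosen with earlier results known, and no enrichment was tested. CBP60G, which drives salicylic acid synthesis, was at 31.6, 28.9, and 32.0 CPM in WT and at 9.89, 10.9, and 8.60 CPM in cxs (-1.65, SE 0.19, edgeR adjusted p = 2.8e-06). PR1, a marker of the salicylic acid response, was at 0.445, 16.1, and 3.22 CPM against 0.980, 0, and 0 CPM, which overlap (-4.20, SE 1.07, edgeR adjusted p = 0.020). In RNA2 PR1 varied within genotypes, from 1.13 to 80.6 CPM among the suvh456 libraries and from 0.0980 to 8.47 CPM in WT. Against WT of RNA2, described without p, CBP60G was higher by 2.17 in suvh456 ldl2 and by 2.19 in cmt23, NIT2, a nitrilase, by 4.58 in suvh456 and 4.03 in cmt23, and AIG1, a gene induced by bacterial avirulence, by 5.74 in sxc. Of 13 photosynthesis members 1 was higher, where 2.37% of all genes were, ATPD, a subunit of the chloroplast ATP synthase, at 848.8, 812.7, and 908.6 CPM in cxs against 556.8, 565.2, and 621.5 CPM in WT (0.56, SE 0.10, edgeR adjusted p = 0.00059). Of 6 chromatin, RNA, and replication members 1 was lower, with 3.25% of all genes, ABH1, the large subunit of the cap-binding complex (-0.35, SE 0.10, edgeR adjusted p = 0.048). ABH1 was also below all WT libraries in all other RNA2 libraries, at 32.4 to 41.6 CPM against 43.6 to 55.0. That held for 11 members and 104 arm genes, and the RNA2 WT libraries helped to choose the members. In RNA3 ABH1 was at 38.1, 47.6, and 45.6 CPM in cxs ashh3 against 46.6, 52.0, and 49.5 CPM in WT, which overlap. No member was below WT in this way in both experiments.

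The study also made gene lists from histone marks in ibm1. The list with more H3K9me2 and less H3K4me1 held 70 members, of which 1 was called in cxs against WT of RNA3, where 2.37% of all genes were higher and 3.25% lower (median log2 difference 0.01) and none in suvh456 or cmt23 against the F1 mean (medians -0.04 and -0.06). Of the 55 members with more H3K9me2 and less H3K36me3, 1 was called lower in cxs against WT, and of the 7 with more H3K36me3 and the 35 with more FLAG-ASHH3 none was. These lists were made in other plants and other assays of the same study.

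Members with and without a TE gene nearby had medians near 0. Of the 413 members with a TE gene within 2 kb, 1 was higher and 4 lower in suvh456 against the F1 mean (median log2 difference 0.02), and of the 1797 others 8 were higher and 3 lower (median 0.02). In cxs against WT of RNA3 the near members had 8 higher and 18 lower (6.295%, median 0.00) and the others 40 and 61 (5.62%, median 0.04), and the 536 arm genes near a TE gene had 13 and 33 (8.58%, median 0.04). In cxs ashh3 against cxs 1 of the near members was called. Of the members above WT in all other libraries of both experiments, AT2G13450 and AT2G07215 had a TE gene 383 and 1302 bases away, and for OFP9 and AT5G26270 the nearest was 6257 and 6100 bases away.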

How the data were processed

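Counts of mRNA-seq reads per gene were used as the authors deposited them, in 1 table for each experiment (27 and 9 libraries). Per the study's methods, 150-base reads had been clipped by 50 bases, aligned to TAIR10 with STAR, and counted per gene. The deposited tables hold 1 strand for each gene. In RNA2 335 members were read from the strand opposite the annotated one, and in RNA3 289. For 106 members the strand differed between the experiments, so their levels in RNA2 and RNA3 are of different strands. The methods state the choice of the strand with more counts for TE genes. The genes and the lists described here were chosen with earlier results of these data known. All 33602 genes were fitted in edgeR 4.0.16 (R 4.3.3; TMM, quasi-likelihood test) with all genotypes of a table, no filter on low counts, and Benjamini-Hochberg adjustment over all genes, and a member was called at an adjusted p under 0.05. Comparisons with WT of the first experiment, whose counts chose the members, are given without p. Named were the 3 largest rises and falls per comparison among called members with a mean CPM of 1 or more whose compared libraries did not overlap, the 5 highest in TPM, and called members of 4 function lists. Genes outside this rule were chosen after their values were seen: the other called members given by name, CRR7, AT5G34830, and the genes of the repeats. Intervals cover counting error only. Alternatives were RLE size factors, filterByExpr, the compared groups alone, a replicate block, DESeq2 1.42.0, a WT minimum of 30, members on their own strand, and single libraries left out; leaving out members whose counts repeat was added after seeing the data. The fits were tested on simulated data. TE genes, TPM, and motifs were handled in Python 3.11.15 with pandas 2.3.3. Replicate pairs of a genotype differed by more than counting error (chi-square per degree of freedom from 4.41 in the first experiment and from 3.39 in the second). Same-numbered libraries of suvh456 and suvh456 ldl2 deviated together (correlations 0.101, 0.627, and 0.476), so their numbers were taken to pair them; in no other tested comparison were all 3 over 0.1.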

Additional observations from a re-analysis of the deposited data

Results flagged for a closer look

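For 3 members every ldl2 library lay on one side of the libraries without the mutation in one background and on the other side in another background, and the difference was not tested. The change in OFP9 with ldl2 was 0.65 in cmt23 and -0.84 in cxs on the log2 scale, a difference of 1.49. OFP9 in cxs ldl2 was at 27.9, 6.29, and 20.4 CPM, and the low value is replicate 2, the library that stood apart. Without it the change in cxs was -0.45 and the difference 1.10, and without cxs ldl2 replicate 1 they were -1.26 and 1.91. AT2G07215 changed by 0.76 in suvh456 and by -1.18 in cmt23, a difference of 1.94, and without cmt23 replicate 3 the latter was -0.78 and the difference 1.54. XTH4 changed by 0.16 in cmt23 and by -0.52 in cxs, a difference of 0.68. Without cmt23 ldl2 replicate 1 the change of XTH4 in cmt23 was 0.10 and the difference 0.62. Leaving out single libraries was chosen after seeing the data.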

How the results depend on the processing

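Counts of called members are given as higher and lower, and in some comparisons the balance of the 2 changed under the alternatives run. In suvh456 against the F1 mean (9 and 7) the compared groups alone gave 4 lower and leaving out repeats 5 lower. Leaving out single libraries gave 6 to 11 and 3 to 7. In cmt23 against the F1 mean (3 and 1) DESeq2 gave 13 and 5, the WT minimum of 30 gave 1 higher, RLE and filterByExpr each gave 2 lower, the compared groups alone gave 0 lower, and single libraries left out gave 1 to 4 and 0 to 1. In suvh456 against cmt23 (6 and 3) the compared groups alone gave 10 and 5, leaving out repeats gave 1 lower, and single libraries left out gave 1 to 5 and 0 to 1. For ldl2 over both crosses (1 and 1) the compared groups alone gave 0 and 0, DESeq2 3 and 5, the WT minimum of 30 gave 0 lower, and single libraries left out gave 0 to 17 and 0 to 58. For ldl2 in cmt23 (0 and 0) the compared groups alone gave 22 and 123 and DESeq2 4 and 19. For cxs against sxc (0 and 0) DESeq2 gave 1 lower and single libraries left out gave 0 to 6 lower. In cxs against WT of RNA3 (48 and 79) leaving out repeats gave 33 higher, and single libraries left out gave 39 to 72 and 59 to 104. In cxs ashh3 against cxs (13 and 5) filterByExpr gave 8 and 0, the compared groups alone 17 lower, members on their own strand 3 lower, leaving out repeats 1 lower, and single libraries left out gave 8 to 20 and 2 to 20. The cause of these shifts was not tested.

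Of 15 pairs of genotypes compared, 1 (suvh456 with suvh456 ldl2) had all 3 same-number correlations over 0.1, and over the 15 pairs 14 of 45 were (-0.591 to 0.667). With the replicate block ldl2 in suvh456 had 0 and 0 members called, as without it, and so had ldl2 in cmt23 and cxs against sxc. In the other comparisons the counts with the block were 8 and 5 in suvh456 against the F1 mean, 2 and 1 in cmt23 against it, 5 and 2 between the parents, 1 and 1 for ldl2 over both crosses, 42 and 64 in cxs against WT of RNA3, and 10 and 5 in cxs ashh3 against cxs.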
